A study of Mus musculus with 13 samples.

Results

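The comparison set 1 library of mouse embryonic fibroblasts (MEFs) that was given 5-azacytidine (5-aza) and has no hairpin named in its title against 3 libraries that received the same drug and a control hairpin. They were picked by their labels, as 4 of the 13 libraries of the series, and 13433 of the 25965 genes in the deposited table held at least 1 RPM (the reads of a gene, normalised to the size of its library) in any of the 4 and were compared. The protocol given for every sample describes primary female MEFs from E13.5 embryos, with an XistΔA allele on one X chromosome and a PGK-strain X as the other. It also describes retroviral transduction, puromycin selection from 24 h, 5-aza for 24 h and harvest on day 7. The lone library is called the PGK library here, after its name in the table. Whether its cells carried that genotype, met a virus or were selected is not stated for it alone, and the study used a PGK sample to define the variants of the PGK-strain X. Its genotype, embryo, virus and selection, and depth therefore cannot be told apart from the lack of a named hairpin. The controls are Luc (a hairpin against luciferase) and Nons A and Nons B (a non-silencing hairpin), and values are given in that order. Nons cells were wild type for Setdb1 by the study's account, and the genotype of the Luc cells is not stated. Nothing says that the 3 controls came from separate cultures, so their range may be technical.

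5-aza is a cytidine analogue that traps DNA methyltransferases once it is in DNA, so that methylation is lost as cells divide. It can raise genes that methylation keeps silent, and repeat transcripts raised by it can trigger an interferon response. MEFs are grown from minced embryos. They make collagens, elastic fibres, proteoglycans and the proteases that remodel them. Early passages can also hold cells of other lineages, among them tissue macrophages, which carry complement C1q, lysozyme and Fc receptors.

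The control libraries are named for their hairpins, so these oligonucleotides are shown, with the guide strand in capitals (bases 60 to 81 of 97, counted from the 5′ end):
Luc: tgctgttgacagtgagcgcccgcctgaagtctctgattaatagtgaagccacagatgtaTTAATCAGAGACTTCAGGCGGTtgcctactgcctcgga
Nons: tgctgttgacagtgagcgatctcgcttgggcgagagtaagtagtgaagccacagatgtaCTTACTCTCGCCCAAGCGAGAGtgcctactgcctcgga
The 21 bases of sense strand that each guide pairs with were in 0 of 141767 annotated mouse transcripts (GENCODE, GRCm38). The table holds no row for a vector, so the presence of a hairpin could not be read from it.

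The PGK library held 17.4 M reads in genes and the 3 controls 40.8 to 47.0 M, so a gene at 1 RPM had 20 reads in the former and 46 to 53 in the latter. All 20 markers on a list of embryonic fibroblast genes passed 1 RPM, and the mesenchymal filament gene Vim stood at 4046 RPM in the PGK library and at 5157, 4730.2 and 5104 RPM in the controls. Xist, which silences the X, stood at 313 RPM in the PGK library and at 192, 244 and 191 RPM in the controls, with Tsix overlapping it. The 8 Y-linked genes had 0 reads in the PGK library, which allows up to 0.147 RPM each. Setdb1 was at 47.0 RPM against 43.9, 42.7 and 43.4 RPM. The germline gene Dazl, which DNA methylation keeps silent in somatic cells, was at 2.94 RPM against 1.93, 1.79 and 1.43 RPM, while the control hairpin libraries without 5-aza held at most 0.0638 RPM. Tissue, sex and drug thus matched the labels in these genes.

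Against this background, 510 genes (3.8% of those compared) were called higher in the PGK library and 358 (2.67%) lower. A call meant that its value lay outside the range of the 3 controls and at least 2-fold from the mean of their log2 RPM; with 1 library on one side there is no test. Fold differences below refer to that mean. Lying outside the range was common by itself: 5210 genes (38.8%) were above it and 5028 (37.4%) below it, and the median gene differed by 0.18 on the log2 scale while the controls spanned 0.16. Of the 510 higher calls, 237 passed 1 RPM only through the PGK library. Such genes had to differ, so, where a list holds any, its higher calls and median below are counted over the genes that also reached 1 RPM in a control. Over all such genes, 273 of 13122 (2.08%) were called higher and 358 (2.73%) lower. This filter removes higher calls only, and lower calls of genes under 1 RPM in the PGK library were all kept. The balance of higher and lower calls, here and in the lists, therefore depends in part on the filter. A stricter rule asked for 2-fold from the nearest control. Its count is given for some lists only, so a list without it may also have lost calls. Named genes that lost the call by it, such as Heyl, Bcl3, Ptgs2, Ddit4, Pgk1, Tek and Mest, are listed near the end. The reads of overlapping genes cannot be told apart, since the counting strand is not given in the sources used here; beside the pairs named below, this holds for Csf1r, Lcp1, Irf7, Cxcl16, Cd55, Bcl3, Col18a1, Mfap4, Ogn, Mmp12, Acta1, Igf1, Igf2r, Bmp4, Lgr5 and Dsp. Most calls also fell outside all 12 hairpin libraries, 473 of the higher and 312 of the lower ones.

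**Figure D1:**
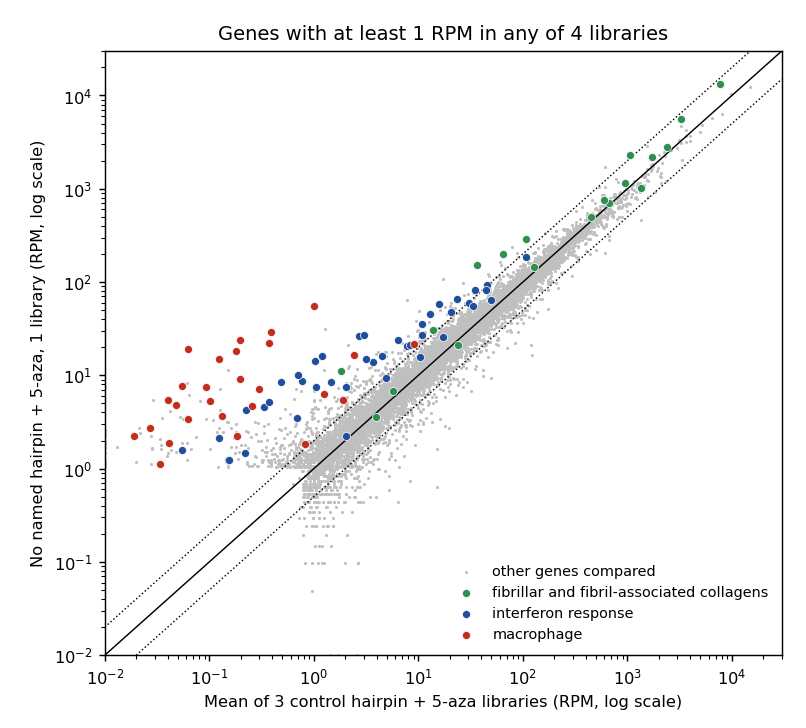
Level of each compared gene in the PGK library (y axis) against the mean of the 3 control hairpin libraries with 5-aza (x axis), both in RPM on log scales and drawn no lower than 0.01 RPM. The solid line marks equal levels and the dotted lines 2-fold differences. Macrophage genes (red) and interferon-response genes (blue) lie above the line, while most other genes (grey) follow it.

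Macrophage genes made up the most extreme rises. The 3 chains of complement C1q, which binds immune complexes and dying cells, are neighbours on chromosome 4 (C1qa at chr4:136895917-136898803, GRCm38). C1qa stood at 19 RPM in the PGK library and at 0.0415, 0.108 and 0.0372 RPM in the controls. C1qb was at 18.4 RPM against 0.124, 0.323 and 0.0931 RPM. C1qc was at 15 RPM against 0.145, 0.194 and 0.0372 RPM. Each control value of C1qa rested on 2 to 5 reads, and the ratio of pooled reads was 315 (95% counting interval 164 to 693). Such intervals, and the limits given for 0 reads, hold for counting error alone, because reads copied by PCR do not count separate molecules. Other defining genes had the same pattern. Mpeg1, which encodes the pore-forming perforin-2, was at 24.0 RPM against 0.0415, 0.452 and 0.0931 RPM. Emr1, which encodes F4/80, was at 5.4 RPM and had reads in Nons A only among the controls (0.0861 RPM). The microglial Fc receptor-like gene Fcrls was at 7.55 RPM from 154 reads, with 1 read in all 3 controls together. None of these reached 1 RPM in a control.

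Over the whole marker list, 30 of 31 genes were found and 29 lay above the control range, where 38.8% of all genes compared lay. The exception was the scavenger receptor Cd163, without a read in any of the 13 libraries, and Lyz1 had 1 read in the PGK library and none elsewhere. The summed level was 305 RPM in the PGK library and 19.8, 19.8 and 18.4 RPM in the controls, within 12.7 to 19.8 RPM for all 12 hairpin libraries. Of the 27 list genes compared, 22 passed only through the PGK library. The other 5 were all called higher, with a median difference of 2.35 on the log2 scale. Csf1r, the receptor that macrophages need to survive, was at 21.8 RPM against 9.85, 8.35 and 9.01 RPM, a 2.41-fold difference. The lysosomal glycoprotein gene Cd68 was at 16.7 RPM against 2.86, 2.05 and 2.33 RPM. The tetraspanin gene Cd53 was at 5.4 RPM against 1.47, 2.35 and 1.94 RPM. The remaining pair was chosen after its values were seen. Lyz2, the lysozyme of macrophages, was at 55.9 RPM against 1.08, 1.1 and 0.856 RPM, a 55.6-fold difference. Itgam, which encodes CD11b, was at 6.28 RPM against 1.24, 1.31 and 1.15 RPM. In RNA from a whole culture, fewer cells of a type and less RNA per cell cannot be told apart, and the same holds for more of either.

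The 15 largest rises were ranked among genes with at least 5 RPM in the higher of the PGK library and the control mean. All were genes known from macrophages or other leukocytes, and 9 of them are on the marker list. They included the actin-bundling gene Lcp1 (29.0 RPM against 0.311, 0.646 and 0.205), the lysosomal membrane gene Laptm5 (22 against 0.352, 0.517 and 0.242) and the scavenger receptor Msr1 (7.11 against 0.0622, 0.151 and 0.168). Each of these was below 1 RPM in all controls and met the 5 RPM floor only through the PGK library, so it had to differ. Gp49a and Lilrb4, a pair of related receptors, also rose, but their intervals overlap and their reads may be shared. The X-linked endosomal receptor Tlr13 was at 6.18 RPM against 0.0622, 0.129 and 0 RPM. Cd36, a lipid scavenger receptor shared by macrophages and adipocytes, was at 4.12 RPM against 0.0207, 0.0861 and 0.0186 RPM. In the plot of macrophage genes by library, the PGK library lay above all 12 hairpin libraries, which also differed among themselves. Nons A was the highest control for C1qa, C1qb, C1qc, Mpeg1, Lcp1 and Laptm5, and Luc for Csf1r and Cd68.

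**Figure D2:**
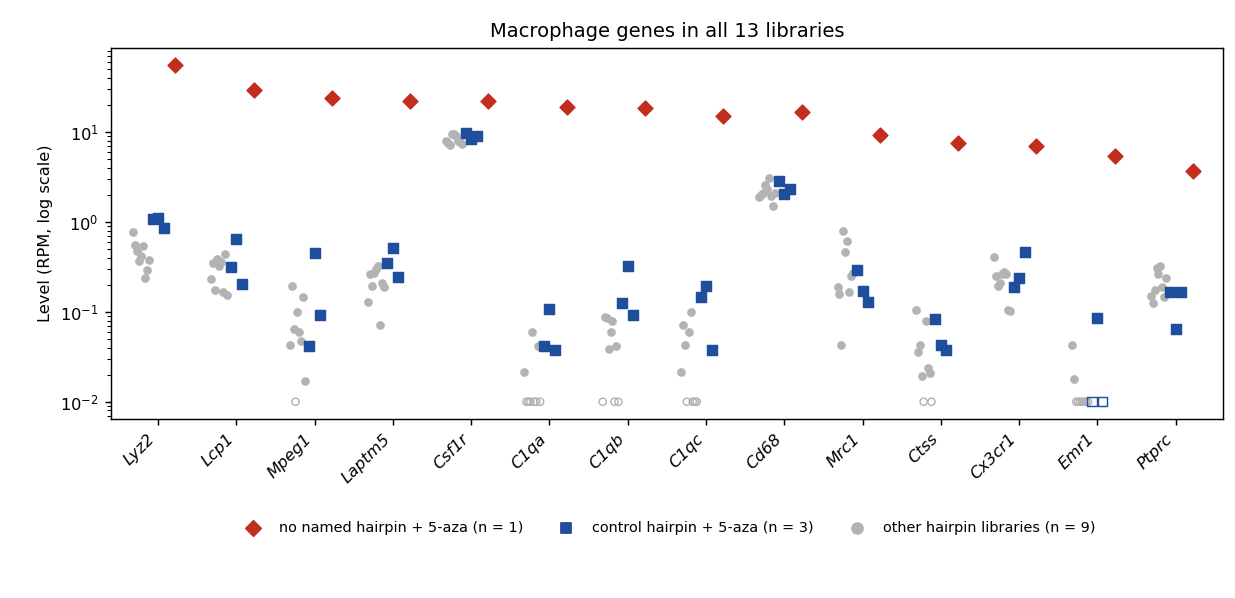
Levels of 14 macrophage genes in all 13 libraries (RPM, log scale): the PGK library as a red diamond, the 3 control hairpin libraries with 5-aza as blue squares, and the other 9 hairpin libraries as grey circles. Open markers at 0.01 stand for no read. The red diamond is above every other marker for each of the 14 genes.

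Markers of other blood cells stayed low. Of 19 lymphoid markers, 16 had no read in the PGK library and none reached 1 RPM in any of the 4. Among those with reads, named after their values were seen, Il7r, a subunit of the interleukin-7 receptor, had 8 reads (0.392 RPM) in the PGK library and 1 read in the 3 controls together. The platelet chemokine gene Pf4, on the erythroid and mast list, had 14 reads (0.687 RPM) and none in any of the 12 hairpin libraries, so this pair was higher at a low level. The erythroid and mast list had 1 gene over 1 RPM, the platelet integrin Itga2b, at 2.26 RPM in the PGK library and 2.09, 2.02 and 1.84 RPM in the controls, a difference of 0.19 on the log2 scale.

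Interferon-response genes were higher almost throughout. These genes answer interferons, and many carry an interferon-stimulated response element (ISRE) in their promoters. Of 46 genes found, 44 lay above the range of the 3 controls. Of the 42 compared, 41 did, against 38.8% of all genes compared, but 10 of the 42 passed only through the PGK library. Of the 32 that reached 1 RPM in a control, 23 were called higher and none lower, with a median of 1.62. Over all such genes 2.08% were called higher. The summed level was 1226 RPM against 474, 599 and 499 RPM, and 400 to 599 RPM over all 12 hairpin libraries. The macrophage markers above moved with this list, and their part in it was not tested.

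The effectors chosen by size of rise were low in the controls. Rsad2, which encodes the antiviral enzyme viperin, was at 4.22 RPM against 0.0829, 0.388 and 0.205 RPM. The GTPase gene Iigp1 was at 4.61 RPM against 0.0829, 0.689 and 0.223 RPM. Oas3, which makes the activator of RNase L, was at 1.57 RPM against 0, 0.129 and 0 RPM. The nucleic acid sensor Zbp1 was at 2.11 RPM against 0.0829, 0.215 and 0.0745 RPM. These 4 passed 1 RPM only through the PGK library. Genes with the highest control levels differed by less. Ddx58, which encodes the RNA sensor RIG-I, was at 94.0 RPM against 39.6, 52.8 and 44.1 RPM, a difference of 1.06 on the log2 scale that was 0.96, short of a call, without Luc. The membrane restriction factor Ifitm3 was above all controls without a call, at 184 RPM against 96.4, 117 and 105 RPM. Trim25, a ubiquitin ligase for RIG-I, differed by 0.39 on the log2 scale, at 64.4 RPM against 52.4, 50.5 and 45 RPM.

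The next genes were chosen after their values were seen, to follow the pathway. Irf7, a transcription factor gene that amplifies the type I response, was at 8.54 RPM against 1.18, 1.92 and 1.27 RPM, a 6.01-fold difference. Isg15, a ubiquitin-like modifier, was at 14.3 RPM against 0.726, 1.64 and 0.726 RPM, a 15.1-fold difference. Ifit1, which binds viral RNA ends, was at 26.6 RPM against 1.64, 4.41 and 2.08 RPM. Ifit3 was at 27.2 RPM against 1.68, 5.21 and 2.27 RPM. Oasl2 was at 16 RPM against 0.684, 2.3 and 0.652 RPM. Nons A was the highest control for each of these 5 genes, but it stayed below the PGK library by more than it exceeded the other controls. Bst2, the tether that holds budding virus, was at 16 RPM against 4.83, 4.59 and 4.06 RPM, with little spread among the controls. Compared genes without a call were Ifit2, Ifi35, Irgm1, Trim25, Eif2ak2, Adar, Herc6, Ifitm1 and Ifitm3, and the first 2 of these differed by 0.57 and 0.62 on the log2 scale. Ifitm1 was the one compared gene inside the control range.

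**Figure D3:**
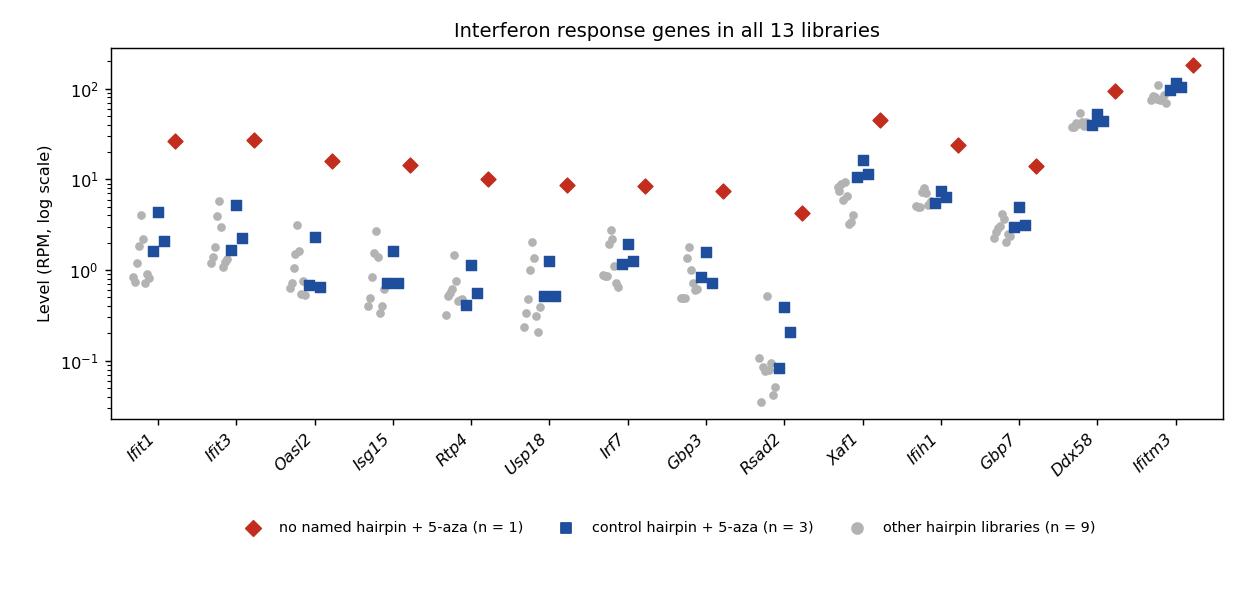
Levels of 14 interferon-response genes in all 13 libraries (RPM, log scale), with the PGK library as a red diamond, the 3 control hairpin libraries with 5-aza as blue squares and the other 9 hairpin libraries as grey circles. The red diamond is above all 12 hairpin libraries for each gene, and Nons A is the highest blue square.

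The 160 bases before the start of 4 interferon-response genes are shown from RefSeq (GRCm38.p6), read along the gene's strand, with each ISRE-like match in capitals. All 4 hold matches, which not every gene of the list does. The letters searched were GAAANNGAAA on both strands, and overlapping matches run together:
Isg15 (chr4:156200819-156200978, minus strand, 3 matches): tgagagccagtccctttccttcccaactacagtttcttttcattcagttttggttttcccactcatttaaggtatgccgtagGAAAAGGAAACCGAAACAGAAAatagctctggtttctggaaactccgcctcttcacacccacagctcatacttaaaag
Ifit1 (chr19:34640729-34640888, plus strand, 2 matches): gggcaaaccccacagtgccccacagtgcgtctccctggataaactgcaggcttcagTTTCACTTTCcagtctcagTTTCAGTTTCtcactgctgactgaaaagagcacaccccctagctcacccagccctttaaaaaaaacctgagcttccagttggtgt
Ifit3 (chr19:34583369-34583528, plus strand, 2 matches): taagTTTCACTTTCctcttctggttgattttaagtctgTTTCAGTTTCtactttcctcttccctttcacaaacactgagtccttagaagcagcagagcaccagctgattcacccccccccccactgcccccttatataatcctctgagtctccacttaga
Bst2 (chr8:71537473-71537632, minus strand, 2 matches): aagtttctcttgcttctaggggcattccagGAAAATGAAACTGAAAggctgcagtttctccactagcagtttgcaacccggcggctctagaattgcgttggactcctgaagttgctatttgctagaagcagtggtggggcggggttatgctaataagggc
In windows from 250 bases before to 50 after the start, these letters were in 17 of 39 windows (43.6%) of the 33 list genes with an entry and in 1131 of 32851 (3.44%) over all promoters. The macrophage factor PU.1 (letters GAGGAAGT) had matches in 3 of 28 windows (10.7%) of macrophage genes and in 3.2% of all. The ISRE-like letters were in the same number of macrophage windows, 3 of 28 (10.7%). Matches did not follow the calls gene by gene. Irf7 and Oasl2, both called, had 0 ISRE-like matches in these windows, while Ifitm3 and Irgm1, without a call, had 2 each. A match describes the letters and not binding, and its relation to the size of a rise was not tested.

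Most class I antigen presentation genes were above the control range by less than 2-fold. Of 20 class I genes compared, 16 were above the control range, where 38.8% of all genes compared were. Of the 20, 1 was called, and the median was 0.32. The called gene was H2-Q4, at 3.24 RPM against 1.24, 0.947 and 1.08 RPM, and it belongs to a family of close copies whose reads may be split between members. The summed level of the general chaperones Calr, Canx and Pdia3 was 3933 RPM against 4203, 4094 and 4266 RPM. That of the other 20 list members was 773 RPM against 622, 619 and 638 RPM, above the range. Of 10 class II genes found, H2-DMa alone passed 1 RPM and lay below the range, at 1.67 RPM against 2.26, 2.24 and 2.4 RPM.

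Secreted signals moved in both directions. Of 22 chemokine and cytokine genes with 1 RPM in a control, 6 were called higher (2 by the stricter rule) and 3 lower, with a median of 0.09. Il1rn, the antagonist of the interleukin-1 receptor, was at 17.9 RPM against 3.4, 8.01 and 5.55 RPM. Cxcl16, a scavenger receptor ligand, was at 4.51 RPM against 0.995, 1.29 and 0.838 RPM. Cxcl10, an interferon-responsive chemokine, was at 3.53 RPM against 0.311, 0.732 and 0.372 RPM, below 1 RPM in all controls and with Art3 overlapping. The 3 lower genes are made by fibroblasts. Il6 was at 0.981 RPM against 4.31, 3.68 and 4.26 RPM, a 4.15-fold difference. Il11 was at 0.785 RPM against 2.67, 2.0 and 2.53 RPM. Cxcl14 was at 44.0 RPM against 93.6, 99.6 and 98.1 RPM. Csf1, the ligand of Csf1r, lay below the range without a call, at 782 RPM against 1437, 990.5 and 1237 RPM.

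In the complement list, 14 genes were compared. Cfp, which encodes properdin, was higher at 5.89 RPM against 1.62, 1.51 and 1.53 RPM. Cd55, which protects cells from complement, was lower at 19.4 RPM against 88.3, 56.6 and 66.6 RPM. Of 33 NF-kB and innate sensing genes with 1 RPM in a control, Bcl3 was called higher at 8.63 RPM against 1.74, 4.54 and 2.59 RPM. Ptgs2, the inducible cyclooxygenase, was called lower at 311 RPM against 695, 599 and 704 RPM.

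A list of collagens was the main fibroblast group that rose. The list, labelled fibrillar and fibril-associated in the figures, also holds chains of other types, such as Col6a1, Col8a1 and Col18a1. Of 19 genes, 6 were called higher and none lower, 3 of them (Col5a3, Col14a1 and Col18a1) also by the stricter rule. In all 11 were above the range, and the median was 0.37. Col3a1, the collagen of elastic tissues, was at 2327 RPM against 662, 1511 and 986 RPM, a difference of 1.23 on the log2 scale that was 0.93, short of a call, without Luc. Col5a3, a collagen that regulates fibrils, was at 152 RPM against 19.3, 53.8 and 36.1 RPM. Col14a1, which lies on fibril surfaces, was at 11.0 RPM against 0.974, 2.63 and 1.84 RPM. Nons A was the highest and Luc the lowest control for all of these. Col11a1, of cartilage fibrils, was at 287 RPM against 72.2, 151 and 99.4 RPM. Col18a1, the source of endostatin, was at 202 RPM against 37.5, 93.0 and 63.1 RPM. The sixth, named after its values were seen, was Col27a1, 2.34-fold higher. The main collagen I chains were above the range without a call. Col1a1 was at 13388 RPM against 5381, 10014 and 7585 RPM, a 1.8-fold difference, and Col1a2 at 5580.3 RPM against 2371, 4264 and 3210.1 RPM. Without Nons A both were called, with differences of 1.07 and 1.02 on the log2 scale. The summed level of the list was 31327 RPM against 15467, 26009.6 and 20055 RPM, and 19562 to 24549 RPM in the controls without 5-aza.

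Elastic fibre and proteoglycan genes split, with 4 called higher and 3 lower among 28, and a median of 0.24. By the stricter rule 2 were higher (Mfap4 and Eln) and 2 lower (Prelp and Efemp1). The higher ones had the same order of controls as the collagens. Mfap4, a microfibril protein gene, was at 107 RPM against 6.78, 30.4 and 14.4 RPM. Eln, which encodes elastin, was at 49.1 RPM against 7.73, 13.2 and 9.21 RPM. The small proteoglycan gene Lum was at 5.25 RPM against 0.415, 3.75 and 1.21 RPM, so the PGK value was close to that of Nons A. Ogn, another one, was at 205 RPM against 64.8, 115 and 83.2 RPM. The lower ones fell further than their spread. Prelp, which anchors basement membrane to tissue, was at 16.4 RPM against 146, 103 and 116 RPM, a 7.33-fold difference. Its interval overlaps Gm15851, which was also low (2.75 RPM against 23.4, 16.8 and 18.4), and reads cannot be assigned between them without strand. Efemp1, which encodes fibulin-3, was at 21.1 RPM against 137, 101 and 118 RPM. Fmod, the proteoglycan fibromodulin, was at 50.4 RPM against 92.1, 117 and 104 RPM.

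**Figure D4:**
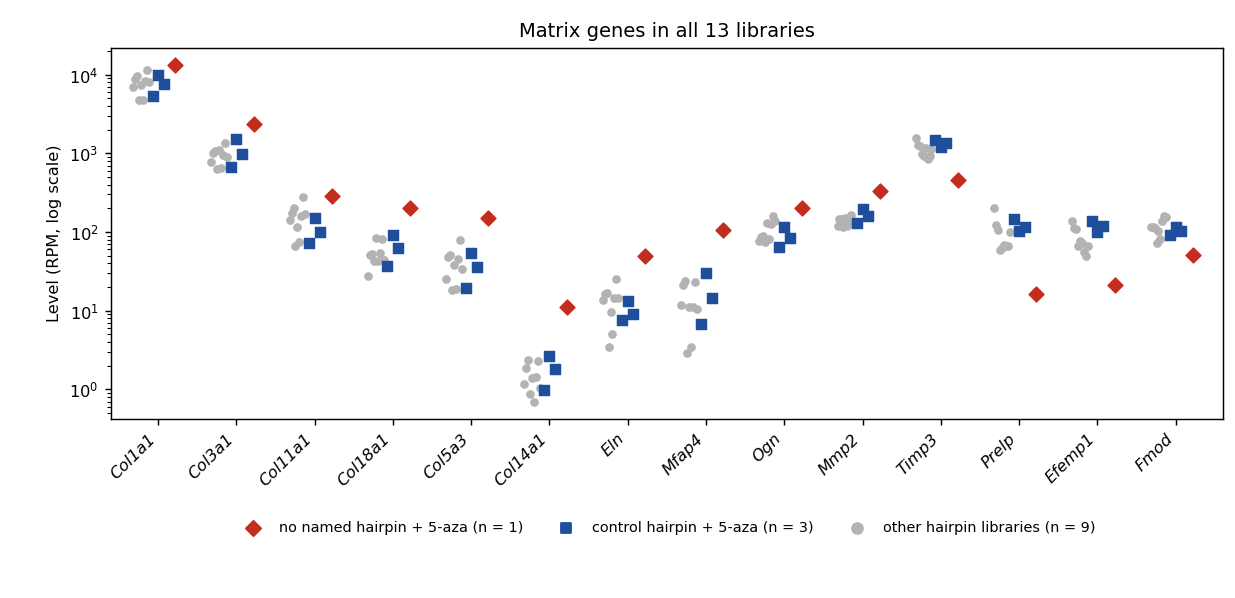
Levels of 14 matrix genes in all 13 libraries (RPM, log scale), with the PGK library as a red diamond, the 3 control hairpin libraries with 5-aza as blue squares and the other 9 hairpin libraries as grey circles. The PGK library is above all 12 hairpin libraries for the genes from Col1a1 to Mmp2 and below all 12 for Timp3, Prelp, Efemp1 and Fmod.

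Some matrix protease genes were higher and some inhibitor genes lower. Of 28 protease and inhibitor genes with 1 RPM in a control, 4 were called higher and 2 lower, with a median of 0.0. By the stricter rule Mmp9 was the 1 higher call. The collagenase gene Mmp13 was at 5.59 RPM against 0.663, 3.14 and 1.27 RPM. The gelatinase gene Mmp9 was at 4.56 RPM against 0.58, 1.94 and 1.32 RPM. Mmp3, or stromelysin, was at 1.82 RPM against 0.228, 1.03 and 0.54 RPM. Mmp12, the elastase of macrophages, was at 4.37 RPM against 0.104, 0.388 and 0.186 RPM and passed only through the PGK library. Timp3, the matrix-bound inhibitor of these enzymes, was at 458 RPM against 1468, 1211 and 1352 RPM, a 2.92-fold difference. It lies inside Syn3 (chr10:86055125-86498896), which moved by nearly the same amount (207 RPM against 671, 547 and 617), so the reads of the pair cannot be separated. Timp2 was below the range at 1155 RPM against 2304, 1925 and 2029.9 RPM. Serpinb2, the plasminogen activator inhibitor 2, was at 0.932 RPM against 5.74, 3.14 and 5.45 RPM.

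Contractile genes were slightly lower without a call. Of 25 genes, 18 were below the range, 5 above it and none was called, with a median of -0.24. Acta2, the smooth muscle actin of myofibroblasts, was at 6383 RPM against 8501, 7439 and 8318 RPM. The skeletal actin gene Acta1 was called lower at 97.0 RPM against 214, 190.4 and 224 RPM. Matricellular genes were mixed. Tnn, or tenascin-W, was higher at 12 RPM against 0.85, 3.62 and 1.88 RPM. Tnxb, or tenascin-X, was lower at 1.13 RPM against 4.15, 3.27 and 3.57 RPM. Fn1, which encodes fibronectin, differed by 0.09 on the log2 scale.

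Markers of fibroblast subsets moved both ways. Of 20 embryonic fibroblast markers, 3 were called higher (Col3a1, Lum and Fap) and 2 lower, and the median was 0.47. The stricter rule left 0 higher and 1 lower, Ly6a. Fap, a protease of activated fibroblasts, was at 8.73 RPM against 1.62, 5.6 and 3.37 RPM. Ly6a, which encodes Sca-1, was at 42.1 RPM against 131, 100.1 and 109 RPM. S100a4, also called fibroblast-specific protein 1, was at 223 RPM against 573, 410.3 and 517 RPM. Among lineage genes, Sp7, the osteoblast factor osterix, had 0 reads in the PGK library, which allows up to 0.147 RPM, against 2.07, 0.646 and 1.56 RPM. Pparg, the adipocyte regulator, was at 2.94 RPM against 13.9, 4.16 and 7.13 RPM. Dlk1, which holds preadipocytes back, was at 29.4 RPM against 114, 64.4 and 89.7 RPM. The master regulator Sox9 of cartilage, at 36.2 RPM against 44.1, 37.8 and 38.6 RPM, was below the range by little. The cartilage and bone list that holds Sp7 and Sox9 did not move down with them. Of its 13 genes compared, 8 were above the range and 2 below, where 38.8% and 37.4% of all genes compared were. However, 3 of the 13 passed only through the PGK library and had to lie above. Of the 10 list genes with 1 RPM in a control, 0 were called higher and 1 lower, with a median of 0.26.

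Genes of positional identity differed between lists. Of 35 Hox genes, 1 was called, Hoxc13, at 0.785 RPM against 2.4, 1.74 and 1.94 RPM, and the median was 0.0. Among 33 limb, trunk and skin patterning genes with 1 RPM in a control, 4 were called higher and 2 lower, together 18.2%, with a median of 0.03. By the stricter rule these were 3 and 0. Sim2 was higher at 3.53 RPM against 0.974, 1.01 and 1.02 RPM. Foxd1, a marker of stromal progenitors, was higher at 2.75 RPM against 0.746, 1.33 and 1.04 RPM. Prrx2, a limb mesenchyme factor, was lower at 21.9 RPM against 71.7, 40.7 and 52.9 RPM. Its relative Prrx1 stood at 508 RPM against 603, 605 and 590.1 RPM.

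Growth genes showed a uniform but small shift in mitosis. All 62 mitosis genes were above the range of the 3 controls with 5-aza, where 38.8% of all genes were, yet none was called and the median was 0.55. None was above all 12 hairpin libraries. Mki67, the antigen of cycling cells, was at 206 RPM against 126, 124 and 124 RPM, and the controls without 5-aza held 185 to 205 RPM. Top2a, which untangles chromosomes, was at 133 RPM against 89.5, 83.5 and 88.2 RPM. The summed level was 2292 RPM in the PGK library, 1683, 1455 and 1622 RPM in the controls with 5-aza and 2001 to 2199 RPM in those without. By this sum the PGK library stood nearer to the untreated controls than to the drug-treated ones. Of 51 DNA replication genes, 38 were above the range, 3 below and none was called. Rrm1, a subunit of ribonucleotide reductase, was at 129 RPM against 111, 96.2 and 99.7 RPM.

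Inhibitors of the cycle gave 1 call. Of 17 CDK inhibitor, cyclin D and pocket protein genes, 6 were above the range and 7 below it. The called gene, Cdkn2a, which encodes the INK4A and ARF proteins and rises as MEFs age in culture, was at 18.9 RPM against 45.8, 43.5 and 44.0 RPM, a 2.35-fold difference. Cdkn1a, or p21, was at 723 RPM against 893, 840.3 and 861 RPM. Ccnd1, or cyclin D1, was at 499.7 RPM against 1017, 755 and 910 RPM. Of 34 p53 targets and DNA damage genes, 16 were below the range and none was called. Mdm2, the feedback inhibitor of p53, was at 251 RPM against 353, 289 and 313 RPM. Ribosome biogenesis and Myc genes gave no call among 38, with a median of 0.07.

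Immediate early genes, which answer growth factor signals within minutes, and genes of ERK feedback were together the lower growth group. Of 38 genes, 29 were below the range, where 37.4% of all genes were, and 27 were below all 12 hairpin libraries. In all 8 were called lower (3 by the stricter rule) and none higher, and the median was -0.52. Nr4a1, an orphan nuclear receptor gene, was at 41.6 RPM against 151, 102 and 119.9 RPM. Dusp4, a phosphatase that shuts off ERK, was at 36.6 RPM against 115, 84.6 and 98.7 RPM. Fos was at 7.01 RPM against 17.3, 17.3 and 16.8 RPM, a 2.44-fold difference with hardly any spread among the controls. Nr4a3 was at 3.78 RPM against 10.6, 7.54 and 8.14 RPM. Egr1 lay below the range without a call, at 127 RPM against 237, 263 and 234 RPM. Fosb, Dusp1, Klf4 and Phlda1, the other 4 called, are named after their values were seen and were 2.09- to 2.28-fold lower.

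Growth factors and receptors split, with 5 called higher and 11 lower among 62 with 1 RPM in a control and a median of -0.08. By the stricter rule 4 were higher and 4 lower. Over all 65 genes of the list compared, 8 were higher and 11 lower. The insulin-like growth factors rose. Igf2, the fetal growth factor, was at 1698 RPM against 507, 721 and 607 RPM, a 2.8-fold difference, with the antisense Igf2as overlapping. Igf1 was at 26.6 RPM against 4.95, 11.7 and 7.43 RPM. Igf2r, the receptor that clears IGF2, was above the range without a call at 703 RPM against 375, 628 and 459 RPM. Flt1, a VEGF receptor gene, and Bmp4 were also called; both are named after their values were seen. Flt1 was at 120 RPM against 34.6, 54.6 and 48.6 RPM. Grem1 and Nog, which encode antagonists of BMPs, were lower. Grem1 was at 116 RPM against 328, 269 and 289 RPM. Nog was at 1.47 RPM against 8.77, 2.5 and 5.12 RPM. Bmp4 itself was at 23.2 RPM against 9.27, 11.8 and 10.7 RPM, and at 21.3 to 21.5 RPM in the controls without 5-aza.

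Wnt genes gave more lower than higher calls. Of 25 with 1 RPM in a control, 4 were lower and 1 higher, together 20%, and the median was -0.01. By the stricter rule 4 were lower and 0 higher. Over all 26 Wnt genes compared, 4 were lower and 2 higher. Wnt2 was at 0.589 RPM against 6.32, 4.2 and 5.36 RPM, an 8.87-fold difference from 12 reads. Wnt4 was at 2.89 RPM against 10.2, 7.56 and 8.53 RPM. Lgr5, the receptor for R-spondins, was at 3.38 RPM against 19.5, 14.4 and 14.7 RPM. Rspo3, one of those ligands, was higher at 11.7 RPM against 4.48, 6.72 and 5.68 RPM. Of 13 Notch genes with 1 RPM in a control, Heyl, a Notch target, was the 1 called, higher at 12.2 RPM against 2.38, 7.08 and 4.8 RPM.

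Metabolic and stress lists moved by less than 2-fold in the median. Of 26 cholesterol synthesis genes, 22 were above the range, with a median of 0.25. Hmgcs1, which makes the HMG-CoA of this pathway, was at 288 RPM against 202, 225 and 218 RPM. Of 29 ATF4 and amino acid response genes, 25 were above the range and 2 were called, with a median of 0.41. Ddit4, an inhibitor of mTORC1, was at 41.8 RPM against 16.5, 23.5 and 21 RPM. The arginine transporter gene Slc7a3 was at 5.84 RPM against 1.58, 2.43 and 2.18 RPM. In contrast, 16 of 22 NRF2 and heat shock genes were below the range, with a median of -0.34. Nqo1, a quinone reductase, was at 9.08 RPM against 34.9, 19.8 and 26.3 RPM. Of 32 glycolysis and hypoxia genes, 21 were below and Pgk1 was called, at 24.2 RPM against 42.2, 65.7 and 64.8 RPM. The X-linked Pgk1 was at 25.8, 47.5 and 47.0 RPM in the controls without 5-aza, so Luc was low in both. Endoplasmic reticulum stress genes gave no call among 20.

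Clustered core histone genes had the lowest median of the lists with at least 10 genes compared, at -0.93. Of 14 genes, 7 were called lower and 13 were below the range. Replication-dependent histone mRNAs mostly lack poly(A) tails, and the libraries were poly(A) selected. Hist1h2be was at 2.01 RPM against 5.74, 4.82 and 5.1 RPM. Hist1h3b was at 0.981 RPM against 2.74, 2.63 and 2.94 RPM. The exception was Hist1h2ai, above the range at 30.0 RPM against 23.1, 23.4 and 23.9 RPM. Members of these clusters are near-identical, and how the authors assigned shared reads is not stated in the sources used here.

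**Figure D5:**
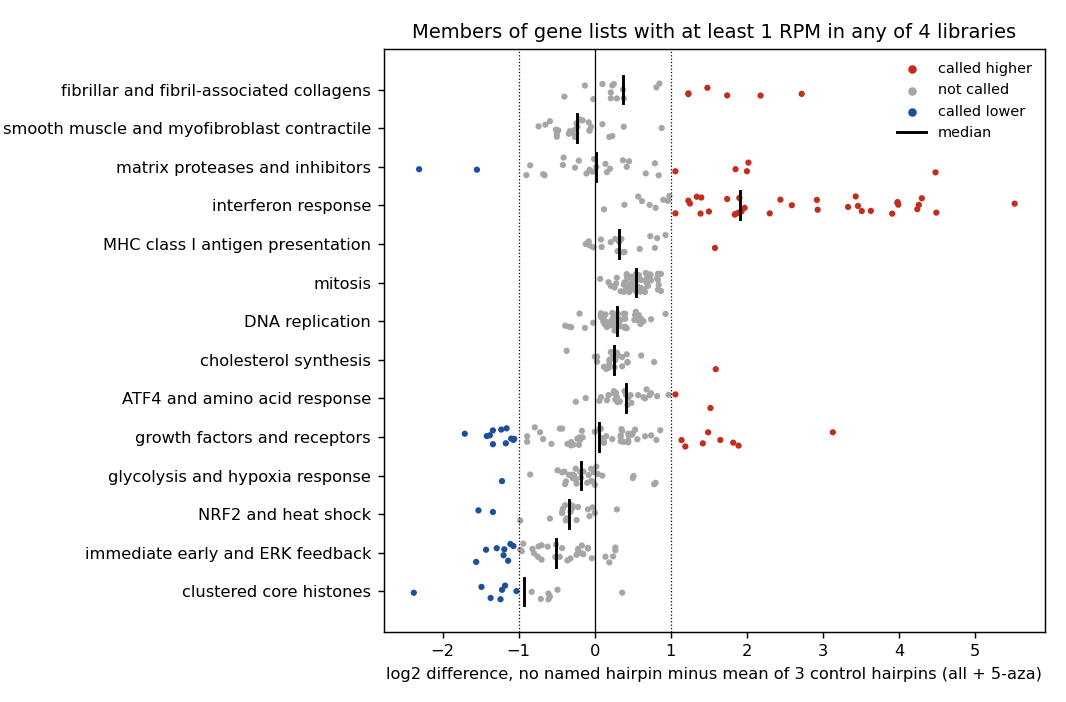
Log2 difference between the PGK library and the mean of the 3 control hairpin libraries with 5-aza for members of 14 gene lists with at least 1 RPM in any of the 4 libraries. Each point is a gene, red if called higher and blue if called lower, the black bar is the median over these points and the dotted lines mark 2-fold. Interferon genes reach furthest to the right, and their median there (1.92) includes 10 genes that passed only through the PGK library.

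The largest falls were spread over functions. Cd200 (chr16:45382135-45409053), whose product calms macrophages through a receptor on them, was at 0.638 RPM against 14.8, 15.3 and 15.6 RPM, a 23.9-fold difference. It rested on 13 reads, and all 12 hairpin libraries held at least 14.8 RPM. The neuropeptide gene Cck was at 0.736 RPM against 12.1, 5.32 and 7.45 RPM. Car8, a relative of carbonic anhydrases, was at 1.62 RPM against 21, 9.86 and 14.2 RPM. Prl2c3, a proliferin gene of a family of close copies, was at 0.442 RPM against 11.0, 2.93 and 5.19 RPM. The helix-loop-helix factor gene Atoh8 was at 9.42 RPM against 75.0, 26.4 and 48.2 RPM. For Cck, Car8, Prl2c3 and Atoh8, Luc was the highest and Nons A the lowest control, the reverse of the collagens.

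Markers of other cell types differed between lists. Endothelial genes gave 1 call among 8, the angiopoietin receptor Tek, lower at 0.638 RPM against 2.36, 1.05 and 1.47 RPM. Of the epithelial list, 8 genes reached 1 RPM in a control, with 2 higher and 1 lower, together 37.5%, and the median was 0.04. By the stricter rule 1 was higher (Msln) and 1 lower (Dsp). Krt18, a simple keratin, was at 18.4 RPM against 9.7, 7.64 and 9.55 RPM, and at 2.57 to 3.11 RPM in the controls without 5-aza. Other keratins, named after their values were seen, went both ways. Krt7 was above the range without a call, at 8.78 RPM against 5.49, 5.49 and 6.16 RPM. Krt8 was called higher but passed only through the PGK library. Krt19 and Krt20 were below the range without a call. Krt19 was at 21.5 RPM against 40.3, 29.6 and 34.6 RPM, and Krt20 at 4.56 RPM against 6.78, 5.49 and 5.96 RPM. Msln, which encodes mesothelin, was at 7.06 RPM against 1.87, 1.66 and 2.29 RPM. Dsp, or desmoplakin, was lower at 2.06 RPM against 9.22, 6.42 and 6.98 RPM. In the neural and glial list none of the 5 genes with 1 RPM in a control was called. Sox10, the factor of neural crest and glia, passed only through the PGK library, at 1.72 RPM from 35 reads against 1 read in each of Luc and Nons B. The glial gene Cdh19 passed in the same way, at 2.75 RPM.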

How the data were processed

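Poly(A) RNA of 13 MEF libraries was sequenced by the authors (TruSeq kit, HiSeq instrument). The deposited table holds log2 RPM per gene. The submitters' processing notes name CASAVA 1.4 and mm10, and the counter, strand and handling of multiply mapped reads are not given in the sources used here. In every library 100% of the deposited values were whole multiples of 1 read (tolerance 0.01), with 0.9 read stored for genes without one, and read counts were recovered from these steps for depth and counting intervals (exact, 95%). Coordinates are 1-based in GRCm38. Genes with at least 1 RPM in any of 4 libraries were compared and called as described above, with no test. An alternative fit of all 13 libraries with limma 3.58.1 (R 4.3.3, trend), which assumes that the lone library varies like the others, gave 461 higher and 346 lower calls at an adjusted p under 0.05 and 2-fold. Both call rules were tested on simulated data, with planted changes larger than 2-fold, genes well above 1 RPM and the same spread set for every library. These data therefore do not show how the rules behave near 1 RPM or 2-fold, or where the PGK library varied more than the controls. The 46 gene lists and the members were chosen with earlier results of these data known. The genes named are the 15 largest rises and falls with at least 5 RPM, up to 4 called members per list and direction, up to 3 of the highest members per list, and Xist, Setdb1, Dazl, Tex19.1 and Y-linked genes. Exceptions are marked, and some results that the rule selects are not reported here. Python 3.11.15, numpy 2.4.6 and pandas 2.3.3 were used.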

Additional observations from a re-analysis of the deposited data

How the results depend on the processing

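No paired analysis was possible because there is 1 PGK library and no control is named as its partner. Against 510 higher and 358 lower calls, a 1.5-fold limit gave 1058 and 845, a floor of 5 RPM 224 and 167, log2(RPM + 1) 314 and 175, and 2-fold from the nearest control 342 and 237. With no filter there were 9599 and 917, since a gene without a read is stored as 0.9 read, which is worth more RPM in the shallower PGK library. Chosen after seeing the data were a floor of 1 RPM in a control, with 273 and 358 calls, leaving out pseudogenes, with 507 and 309, and leaving out the macrophage and interferon lists, with 450 and 358. Leaving out each control in turn gave 447 to 567 higher and 305 to 399 lower calls. Median centring, quantile, GC and length, autosomal, 12-library, limma and untreated-control alternatives stayed within 1.5 times both counts. Of 124 named genes called, 9 lost the call without Luc (Ddx58, Col3a1, Col27a1, Mmp2, Pparg, Phlda1, Rspo3, Ddit4 and Tek), 2 without Nons A (Fmod and Krt18) and 1 without Nons B (Fosb), and none reversed. Without Nons A, 6 genes gained one (Irgm1, Eif2ak2, Herc6, Col1a1, Col1a2 and H19), at 1.01 to 1.12 on the log2 scale. The largest loss came from asking for 2-fold from the nearest control, where 31 of the 124 lost the call: Ddx58, Bcl3, Ptgs2, Col3a1, Col11a1, Col27a1, Lum, Ogn, Fmod, Mmp2, Mmp13, Mmp3, Acta1, Fap, S100a4, Pparg, Prrx2, Nr4a3, Fosb, Dusp1, Klf4, Phlda1, Bmp4, Nog, Rspo3, Heyl, Ddit4, Pgk1, Tek, Krt18 and Mest. With log2(RPM + 1) 10 did (Il11, Mmp3, Hoxc13, Foxd1, Fosb, Rspo3, Hist1h3b, Tek, Krt18 and Tex19.1). Of the 9 genes that lost the call without Luc, the higher ones then differed by 0.91 to 0.98 on the log2 scale. Pparg, Phlda1 and Tek differed by -0.89 to -0.97. Against controls without 5-aza, 21 of the 124 lost the call, among them Igf2, Cdkn2a and Bmp4. Of 44 list medians, 8 changed sign in an alternative, none over 0.09. At 20 reads per RPM in the PGK library, falls of genes near 1 RPM are the least precise.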

Other observations

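Pseudogenes were over-represented among the lower calls. Of 349 pseudogenes compared, 49 (14%) were called lower and 3 (0.86%) higher, and they made up 13.7% of the lower calls against 2.6% of the genes compared. Their median difference was -0.11. Of 38 ribosomal protein pseudogenes, 12 were called lower and none higher. Apart from Rps15a-ps2, Rhox5, Tex19.1, Dazl and Mest, the genes named in these observations were chosen after their values were seen. Several low pseudogenes stood near their level without 5-aza. Gm17430 was at 1.28 RPM in the PGK library, at 5.7, 4.41 and 5.64 RPM in the controls with 5-aza and at 1.32 to 1.47 RPM in those without. Gm2174 was at 0.491 RPM, 4.35, 3.66 and 3.67 RPM, and 0.647 to 0.919 RPM. Rps15a-ps2 was an exception, at 1.03 RPM against 7.26, 6.05 and 6.48 RPM with 5-aza and 5.07 to 5.21 RPM without. Reads of such copies can be shared with the parent genes.

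Some transcripts that were higher with 5-aza in the controls were higher still in the PGK library. The series holds no PGK library without 5-aza, so its response to the drug was not tested. Gm10800, a repeat-linked transcript, was at 96.6 RPM against 21.7, 32.1 and 26.8 RPM, where the controls without 5-aza held 0.371 to 0.446 RPM. AC242409.1 was at 30.2 RPM against 8.02, 11.8 and 9.05 RPM. The X-linked homeobox gene Rhox5 was at 5.84 RPM against 1.31, 2.41 and 1.92 RPM. The germline gene Tex19.1 was at 1.57 RPM against 0.394, 0.301 and 0.261 RPM, and passed only through the PGK library. Dazl was above the range without a call. Hsd3b6, a steroid enzyme gene, went the other way, with 0 reads (up to 0.147 RPM) against 5.22, 0.84 and 1.68 RPM.

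Imprinted genes gave 2 higher calls and 1 lower among 28 with 1 RPM in a control, with a median of 0.14. Mest was at 50.9 RPM against 17.9, 27.5 and 18.5 RPM, with Copg2 overlapping. H19, which shares its control region with Igf2, was at 1054 RPM against 470, 648 and 499 RPM, just short of a call. The summed level of the list was 7233 RPM against 5021, 5519 and 5076 RPM.

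On chromosome X, 32 of 450 genes were called higher and 15 lower, together 10.4%, against 6.32% over the autosomes and 3.4% to 8.29% on single autosomes. Of the higher calls, 16 passed 1 RPM only through the PGK library. Over the 432 X-linked genes with 1 RPM in a control, 16 were higher and 15 lower, together 7.18%, against 4.72% over the autosomes. The median difference of X-linked genes was 0.06. The Zcchc5 gene (chrX:106837082-106840644), which stems from a retrotransposon, was at 64.7 RPM against 5.78, 10.3 and 7.13 RPM. Several X-linked calls were macrophage genes. Tlr7 was at 1.62 RPM against 0.0622, 0.0431 and 0.0931 RPM, and Was at 1.18 RPM against 0.0415, 0 and 0.0186 RPM.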
